A study of Mus musculus with 6 samples.

Results

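The cytosolic ribosomal protein genes were followed across 6 sorted blood-forming cell populations of Mof heterozygous and wild-type mouse bone marrow. A gene was counted as a member when its symbol was Rps, Rpl or Rplp with a number and an optional short suffix (a, l, x, y or a further number), or Rpsa. This rule takes no measured value into account and found 84 of the 23538 genes in the tables. Of these, 33 encode proteins of the small subunit and 51 proteins of the large subunit, among them the 3 stalk genes. At least 1 transcript was counted for 83 of them, and 77 passed the filter of a mean of 1 count per library and were tested among 7143 genes.

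Ribosomal proteins assemble with ribosomal RNA into the small subunit, which reads the messenger RNA, and the large subunit, which joins amino acids. Their messages are short, very abundant and mostly start with a C followed by a run of pyrimidines (the 5′ terminal oligopyrimidine tract), through which growth signalling controls their translation as a group. Blood cells are sensitive to their supply. In humans, carrying 1 damaged copy of any of several of these genes causes Diamond-Blackfan anaemia, in which red cell precursors fail. Mof (gene symbol Kat8) encodes a histone acetyltransferase that acetylates histone H4 at lysine 16 at active genes.

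Libraries came from Mof heterozygous mice (written Mof -/+ in the labels) and from wild-type mice, with 15 cells per sort and 3 libraries for each of the 6 populations and 2 genotypes, 36 in all. The populations were haematopoietic stem cells (HSC; Lin- Sca-1+ cKit+ cells without CD34, Flt3 and CD48 but with CD150) and 3 CD34+ CD48+ Lin- Sca-1+ cKit+ multipotent progenitors. Among these progenitors, MPP2 was Flt3- CD150+, MPP3 was Flt3- CD150- and MPP4 was Flt3+ CD150-. Common myeloid progenitors (CMP) were Lin- Sca-1- cKit+ IL7r- cells with CD34 and low CD16/32, and megakaryocyte-erythroid progenitors (MEP) were the same but with neither CD34 nor CD16/32. CEL-Seq2 reads the 3′ end of each transcript, 1 tag per molecule, so levels are given as CPM, a library's counts scaled to a common total, and are not divided by gene length. Nothing in the labels ties the 3 replicates to different mice. Every p-value therefore measures the spread between libraries, which may be technical. The labels group each genotype's libraries under 3 sample records (HSC, the MPPs, and CMP with MEP). These records are called pools here, though the labels do not say whether each was processed as 1 batch. Genotype is thus never separable from pool, and within a genotype the same holds for a comparison of HSC, the MPPs and the CMP and MEP pair with each other: the effect of the pool and that of the population cannot be told apart.

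The libraries held 1577 to 123765 counts (median 41227) and 743 to 9359 detected genes. Shallow libraries, 6 of the 36, stood apart. They were the second of heterozygous HSC (1577 counts), all wild-type MPP2 libraries (10331, 12339 and 11295) and a pair from wild-type MPP3 (replicate 1 with 7304 and replicate 2 with 2764), and the next lowest had 18040. Kat8 itself was too rarely counted to check the genotype, with 11 counts in 18 heterozygous libraries (9.86 CPM, exact 95% Poisson interval 4.92 to 17.6) and 12 in 18 wild-type libraries (18.3 CPM, 9.45 to 31.9). Mpo, a neutrophil granule enzyme of myeloid progenitors, averaged 2375 CPM in heterozygous and 1615 CPM in wild-type CMP and at most 431 CPM elsewhere. Car1, an erythroid carbonic anhydrase, averaged 2066 CPM in heterozygous and 1702 CPM in wild-type MEP. A list of 6 HSC markers (Hlf, Meis1, Mecom, Procr, Mllt3 and Ctla2a) summed to 2134 CPM in heterozygous and 1488 CPM in wild-type HSC. Heterozygous MPP3 libraries averaged more than heterozygous HSC, 2284 CPM, with 1583, 2502 and 2766 CPM, against 0, 0 and 1248 CPM in wild-type MPP3, so this gate did not hold the same marker level in both genotypes. Wild-type HSC replicate 3 held only 131 CPM of the 6 HSC markers, while the highest wild-type HSC library held 2510 CPM. The same replicate held 5234 CPM of B-lineage genes and 2650 CPM of macrophage and dendritic genes, and it was kept in the main fit. Globin transcripts reached 146563 CPM in a wild-type MPP4 library, and their values stand beside the results they touch.

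Ribosomal protein messages were among the most abundant in every population. The tested members averaged 53.1 to 4938 CPM over the 36 libraries (median 2063), 69 of the 77 averaged at least 1000 CPM, and 68 were found in 35 or more libraries. Rps9, a small-subunit protein that binds early in assembly, was highest at 4938 CPM. It ranged from 3049 to 16281 CPM, and the top value rests on 45 counts in wild-type MPP3 replicate 2. Also among the highest were Rpl41 at 4235 CPM, which encodes the shortest protein of the large subunit, Rpl13 at 3999, Rps12 at 3956, the stalk gene Rplp1 at 3798, Rps20 at 3777, Rps23 at 3658, Rpl4 at 3475 and Rpl17 at 3407 CPM. Rps23 sits at the decoding centre, and a loop of the Rpl4 protein reaches the tunnel through which the new chain leaves.

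A few members were nearly silent or nearly uncounted. Rpl10l and Rpl3l, tissue-restricted copies of Rpl10 and Rpl3 known from testis and from striated muscle, had 2 and 4 counts in all. Rpl39l, another testis-enriched copy, had none, which allows up to 2.69 CPM in heterozygous and 4.57 CPM in wild-type libraries (3 counts of the summed total; counting error only). Rps27 and Rpl30 had 6 counts each and Rpl26 had 14, although all 3 encode core ribosomal proteins. Rps27 was at 5.38 CPM in heterozygous libraries (6 counts, 95% interval 1.97 to 11.7), with 0 counts and a limit of 4.57 CPM in wild type. Where the tags of such genes were placed was not tested, so these values are counts at the named gene and not measures of the protein's supply.

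The summed share of these genes in a library's counts was highest in the committed progenitors. In heterozygous and wild-type CMP it was 19.5% ± 1.18 and 20.3% ± 1.11 (SD, n = 3 each), and in heterozygous and wild-type MEP 20.4% ± 0.55 and 19.7% ± 2.18. The 12 CMP and MEP libraries ran from 17.8% to 22.1%, against 4.31% to 18.6% in the 24 HSC and MPP libraries and 10.01% to 18.6% in the 18 of them that were not shallow. About 1 transcript in 5 was thus a ribosomal protein message in CMP and MEP, and the library ranges overlapped slightly. In libraries of so few cells, fewer cells of a type and less RNA per cell cannot be told apart.

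By genotype, the shares overlapped outside MPP2. Heterozygous MPP2 libraries had 15.6%, 16.6% and 15.6%, against 10.8%, 12.8% and 9.71% in wild type, so the groups stood apart, with every wild-type library shallow. In MPP3 the values were 16.3%, 16.1% and 18.6% in heterozygous and 8.63%, 10.8% and 17.2% in wild-type libraries, of which the 2 low ones were the shallow ones and the third lay inside the heterozygous range. In MPP4 they were 17.4%, 15.7% and 10.01% in heterozygous and 17.1%, 14.2% and 10.2% in wild-type libraries, which covered the same span. The HSC values were 15.3%, 4.31% and 17.1% in heterozygous libraries, the low one being the library of 1577 counts (95% Wilson interval 3.42% to 5.43%), and 17.6%, 15.2% and 14.8% in wild type.

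Transcripts of other cells took part of the total in the stem and multipotent libraries. Globin genes ran from 0 to 146563 CPM there and from 0 to 365 CPM in CMP and MEP, and mature neutrophil genes reached 33703 CPM and 33347 CPM. The lowest MPP4 shares, 10.01% in heterozygous replicate 3 and 10.2% in wild-type replicate 3, came with 103434 and 146563 CPM of globin. Taken over the counts left after removing both lists, the mean shares were 14.8% in heterozygous and 14.7% in wild-type MPP4, 16.0% in heterozygous and 11.5% in wild-type MPP2, and 19.5% in heterozygous and 20.4% in wild-type CMP, and heterozygous and wild-type means kept their order in all 6 populations. The ratio of small-subunit to large-subunit counts was 0.779 to 0.853 in the 12 CMP and MEP libraries and 0.619 to 0.904 over all 36, with both ends of the wider range in shallow libraries.

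**Figure D1:**
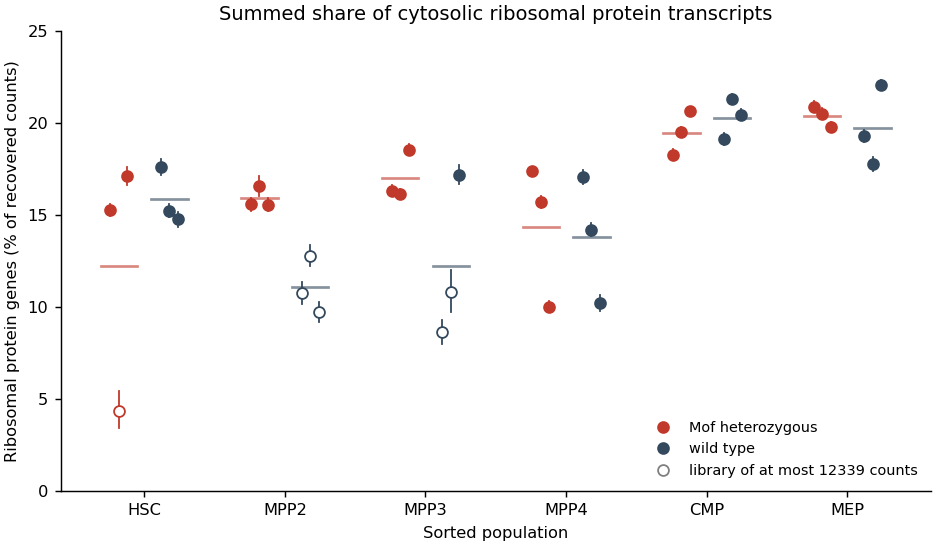
Summed share of cytosolic ribosomal protein transcripts, in percent of a library's recovered counts, for each of 36 libraries (points) and each group mean (line), with heterozygous left of wild type in each population and open points for the 6 shallow libraries. CMP and MEP libraries lie between 17.8% and 22.1%, and the lowest point, 4.31%, is a heterozygous HSC library of 1577 counts.

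Among wild-type populations, 28 of the 77 tested members differed (limma voom F test, Benjamini-Hochberg adjusted over all 7143 genes at 0.05), where 4.66% of all genes tested did. Rpl14, Rps15, Rps10, Rplp2, Rpl37, Rps2 and Rpl28 were among those with the smallest p-values, and all of these were highest in CMP or MEP. Without the shallow libraries this test loses wild-type MPP2 and keeps 1 wild-type MPP3 library. It is then a different test, and its calls are not set beside the 28. Of the 22 members tied to Diamond-Blackfan anaemia, 20 were tested and 9 differed, among them Rpl31, Rps10, Rps19, Rps24 and Rps28. Calls thus fell on both subunits, inside and outside the disease list.

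Rps15, a protein of the small subunit's head, had 1939, 2271 and 2120 CPM in wild-type CMP. The other wild-type populations held 1744, 2086 and 1729 CPM in MEP, 1341, 1054 and 1080 in HSC, 290, 486 and 531 in MPP2, 958, 1085 and 576 in MPP3, and 809, 420 and 554 in MPP4. Every CMP and MEP library thus exceeded every HSC and MPP library. Against the mean of the other 5 populations, Rps15 was 1.29 higher in CMP on the log2 scale (SE 0.230, 2110 against 983 CPM, limma voom adjusted p = 0.00065). Rps10, a small-subunit protein tagged with ubiquitin when ribosomes collide, was 1.32 higher in CMP (SE 0.262, 1844 against 874 CPM, limma voom adjusted p = 0.0032).

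Rpl14, of the large subunit, had 1598, 1941 and 1911 CPM in wild-type CMP and 1708, 1714 and 1983 in wild-type MEP. It lay at 1272, 969 and 654 CPM in HSC and between 0 and 865 CPM in the 9 MPP libraries. The groups did not overlap, and the differences were 1.46 (SE 0.279) for CMP and 1.46 (SE 0.283) for MEP against the others on the log2 scale (limma voom adjusted p = 0.0021 and 0.0026). In all, 13 members were higher in wild-type CMP than in the mean of the other populations, where 1.01% of all genes were called and 0.602% were higher, and none was lower. Beside those named they included Rps28, Rpsa, Rps2, Rpl12, Rpl28 and Rplp0.

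In wild-type MEP, 12 members were higher and none lower, where 0.868% of all genes were called, 0.49% higher and 0.378% lower, and 8 of them were also among the 13 of CMP. Since CMP and MEP are each among the other populations of the other, and share 4 of 5 populations in that mean, the 2 lists are not independent. Rplp2, 1 of the acidic stalk proteins that recruit elongation factors, led the MEP list. It had 493, 743 and 303 CPM in MEP, 233, 436 and 314 in CMP, 241, 228 and 98.1 in HSC and 0 to 144 in the MPPs, so every MEP library lay above every HSC and MPP library, while 1 HSC value exceeded the lowest CMP value. Its difference for MEP was 1.87 (SE 0.344, limma voom adjusted p = 0.0018). Rpl37 was at 1250, 886 and 1123 CPM in MEP, against 736, 1096 and 759 in CMP, 791, 456 and 523 in HSC, 0 to 958 in MPP2 and MPP3 and 235, 157 and 111 in MPP4 (difference 1.52, SE 0.311, limma voom adjusted p = 0.0053). Rpl31, which sits by the exit of the peptide tunnel, was 1.67 higher (SE 0.359), also in MEP.

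Seen over the whole group, 76 of the 77 members lay above 0 for wild-type CMP (median 0.52 on the log2 scale, range -0.01 to 1.46) and 75 for wild-type MEP (median 0.55). The median of all 7143 genes was -0.26 and -0.29, and that of 683 other genes with a mean of at least 10 counts, nearer the members in level, 0.11 and 0.06. Without the shallow libraries, which removes MPP2 and leaves 1 MPP3 library, the members' medians were 0.29 for CMP and 0.32 for MEP, beside -0.08 and -0.10 for all genes. With edgeR on the same libraries they were 0.52 and 0.46, beside 0.49 and 0.45 for all genes. By limma voom fewer members were called in CMP and MEP without the shallow libraries than with them, Rps15 and Rps10 among them in both. Fitted differences by edgeR without those libraries were 1.41 for Rps15 and 1.14 for Rps10 in CMP, and 1.10 and 1.01 in MEP. Leaving out single libraries moved the CMP count between 2 (wild-type CMP replicate 2) and 26 (heterozygous HSC replicate 2) and the MEP count between 1 (wild-type MEP replicate 3) and 29 (heterozygous HSC replicate 2). With limma trend and equal weights the counts were 0 and 1.

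Rps28, which lines the channel where the message leaves the small subunit, was the 1 member lower in wild-type MPP2 than in the mean of the others. It had 581, 648 and 266 CPM there, against a mean of 1665 CPM (difference -1.63, SE 0.401, limma voom adjusted p = 0.0437), where 0.378% of all genes were called, 0.364% higher and 0.014% lower. All 3 of these libraries are shallow, and 12 of the 36 omissions of 1 library ended the call. In wild-type MPP4 no member was called by limma voom or edgeR (13 at an unadjusted p under 0.05, as 7.63% of all genes were, and 1 by DESeq2), where 0.224% of all genes differed. HSC and MPP3 against the others in wild type gave 0 calls by limma voom, edgeR and DESeq2, where 0.07% and 0.126% of all genes were called. At an unadjusted p under 0.05 there were 5 and 13 members, no larger a share than the 6.54% and 18.1% of all genes. Once the shallow libraries were left out, with 1 MPP3 library remaining, the MPP4 median was -0.46 for members and 0.02 for all genes. The members called then were all lower, with fitted differences of -1.49 for Rps10, -1.84 for Rpl37 and -1.11 for Rps15 among them.

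In heterozygous libraries most members were again above the other populations in CMP and MEP, with smaller medians than in wild type. Without the shallow libraries the medians were closer, 0.24 in heterozygous and 0.29 in wild-type CMP and 0.31 in heterozygous and 0.32 in wild-type MEP. No member passed the F test (limma voom, 18 at an unadjusted p under 0.05, as 15.8% of all genes were, 0 by edgeR and 3 by DESeq2), where 3.65% of all genes did. Without the shallow library of heterozygous HSC and the 5 wild-type ones, 18 passed, where 6.44% of all genes did. Rpl22, an RNA-binding large-subunit protein needed for T cell development in mice, had the smallest adjusted p, 0.0522, by limma voom. Then followed Rps12, Rps2, Rpl41, Rpl10 and Rpl36a. Both Rps12 and Rps2, which lines the channel where the message enters, were highest in CMP and MEP. Rps2 had 2612, 3142 and 3789 CPM in heterozygous CMP and 3773, 3582 and 3363 in heterozygous MEP, against 1510 to 2934 CPM in the 9 heterozygous MPP libraries, with 1 MPP4 value above the lowest CMP value. Rps12 averaged 5383 ± 535 CPM in heterozygous CMP and 5419 ± 107 in heterozygous MEP, and 3080 ± 954 to 3852 ± 679 in the 3 heterozygous MPPs (SD, n = 3 each).

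In heterozygous CMP the median member lay 0.27 above the other populations, with 68 of 77 above 0 and an all-gene median of -0.03. In heterozygous MEP it was 0.35, with 71 of 77 above 0 and an all-gene median of -0.09. No member was called in either (limma voom; 10 and 26 at an unadjusted p under 0.05, as 8.34% and 11.6% of all genes were; 0 and 0 by edgeR; 0 and 5 by DESeq2), where 0.182% and 0.616% of all genes were. Without the shallow libraries Rpl10 (0.59) and Rps12 (0.48) were called in CMP, where 0.343% of all genes were. In MEP Rpl41 (0.41), Rps2 (0.63), Rpl4 (0.48), Rps12 (0.47) and Rpl35 (0.53) were called, where 1.38% of all genes were. The heterozygous and wild-type comparisons share no library but come from 1 fit, and leaving out a heterozygous library moved wild-type calls. In both genotypes 67 members lay above 0 for CMP and 69 for MEP. These members share libraries and totals, so they are not independent of each other. Whether the genotypes differ in this is the interaction given further on.

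**Figure D2:**
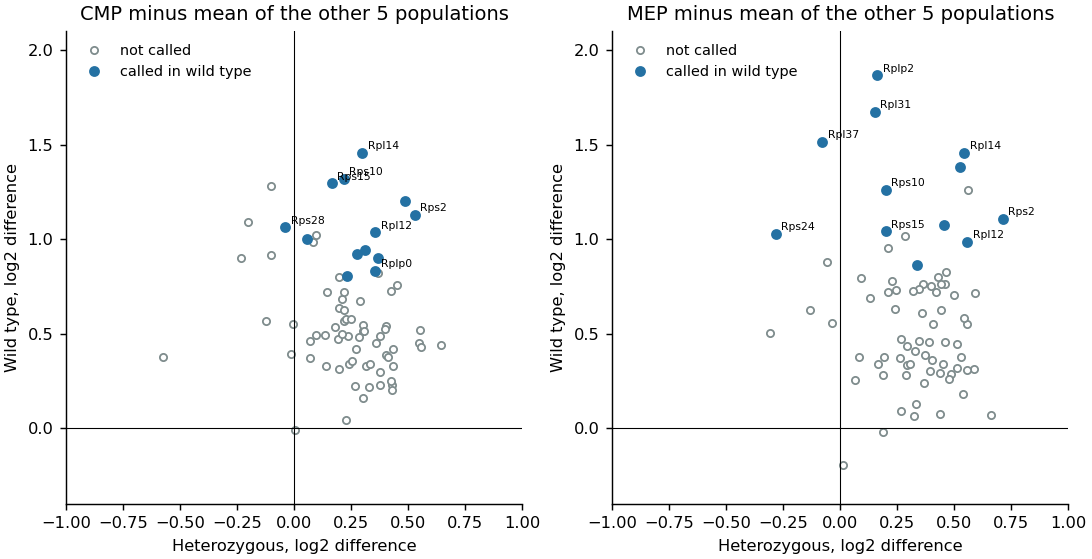
Log2 difference of CMP (left panel) and MEP (right panel) from the mean of the other 5 populations for 77 ribosomal protein genes (points), heterozygous on the horizontal and wild type on the vertical axis, with filled points for genes called in wild type. Most points lie above 0 on both axes, 67 of 77 for CMP and 69 for MEP, and the wild-type medians are 0.52 and 0.55 against heterozygous medians of 0.27 and 0.35.

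No member passed the test between MEP and CMP, which shared a sample record within each genotype. MEP minus CMP gave 0 called members in heterozygous and 0 in wild-type libraries (limma voom, edgeR and DESeq2; 0 at an unadjusted p under 0.05 in both, as 4.42% of all genes were in heterozygous and 5.36% in wild-type libraries), where 0.028% and 0.042% of all genes were called. The largest wild-type difference was that of Rps27l, a stress-inducible copy of Rps27, with 335, 171 and 371 CPM in MEP and 198, 158 and 183 CPM in CMP (0.70 on the log2 scale), so the groups overlapped. In heterozygous libraries Rpl34, at 84.0 CPM in MEP and 63.1 CPM in CMP, led with 0.71 (95% interval -0.48 to 1.91). Among the 3 MPPs no member was called in either genotype (limma voom, edgeR and DESeq2; 0 at an unadjusted p under 0.05 in heterozygous and 2 in wild type by limma voom), where 0.98% and 0.014% of all genes were.

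**Figure D3:**
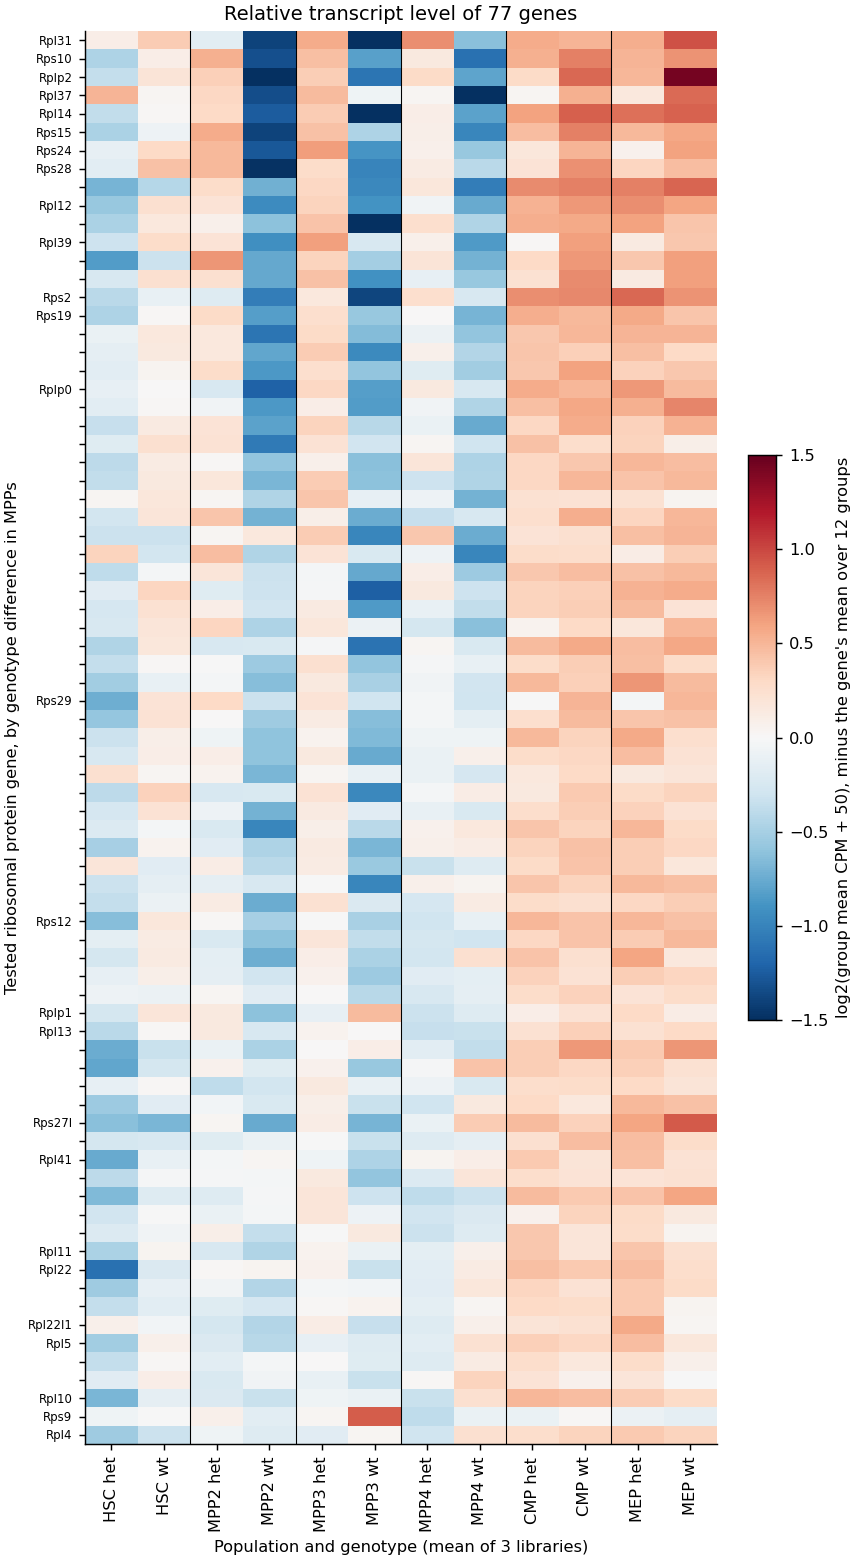
Relative level of 77 ribosomal protein genes (one line each, ordered by the genotype difference in MPPs, with some of the genes named) in 12 groups, as log2(group mean CPM + 50) minus the gene's mean over the groups, with heterozygous left of wild type in each population. CMP and MEP columns are above the gene's mean for most genes, and the wild-type MPP2, MPP3 and MPP4 columns are lowest for the genes at the top, such as Rps10 and Rpl31.

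The comparison of genotypes, averaged over the 6 populations, called 1 member, Rps15, as higher in heterozygous libraries, where 0.168% of all genes were called in either direction and 0.056% as higher. It averaged 1524 CPM in heterozygous and 1171 CPM in wild-type libraries, a log2 difference of 0.63 (SE 0.146, 95% interval 0.34 to 0.92, limma voom adjusted p = 0.0399). In all, 22 members had an unadjusted p under 0.05, as 9.48% of all genes did. The call was lost in 32 of 45 alternatives, among them TMM scaling, leaving out the shallow libraries and most omissions of 1 library of either genotype. DESeq2 called 13 members, where it called 47 of 7143 genes, and edgeR 5 members, where it called 1.13% of all genes.

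Within single populations no member was called by limma voom. In the MPPs 25 (MPP2), 20 (MPP3) and 15 (MPP4) of the 77 members had an unadjusted p under 0.05, where 8.47%, 18.4% and 5.19% of all genes had one and 0%, 0% and 0.014% were called. The other populations had 1 (HSC), 2 (CMP) and 3 (MEP) such members, where 9.002%, 3.82% and 4.03% of all genes had one and 0%, 0.042% and 0.042% were called. edgeR called 4 in MPP2 and 2 in MPP3, where it called 0.154% and 0.098% of all genes. DESeq2 called 6 in MPP2 and 4 in MPP4, where it called 21 and 10 of 7143 genes, and neither called any in the other populations. Counting libraries instead, all 3 heterozygous values lay above all 3 wild-type values for 43 of 77 members in MPP2, where 9.09% of all genes did, for 30 in MPP3, where 22.6% did, and for 14 in MPP4, where 6.03% did. The order was the other way for 0, 1 and 2 members, where 4.49%, 1.62% and 3.74% of all genes were. In CMP only 1 member was above and 17 below, where 7.66% and 4.83% of all genes were, and in MEP 7 were above and 5 below, where 6.72% and 5.17% were.

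Since the MPPs held most of the members at an unadjusted p under 0.05, the mean of MPP2, MPP3 and MPP4 was compared between genotypes. This contrast was chosen after the values were seen, so its calls are a description of these libraries and not independent evidence. It called 19 members, all higher in heterozygous MPPs, where 1.6% of all genes were called in either direction, 0.518% higher and 1.08% lower. Of the 19, 9 belong to the small and 10 to the large subunit. The 5 with the smallest p were Rps15, Rps10, Rps24, Rps28 and Rpl14, and Rpl12, Rpl37, Rpl31, Rpl39, Rplp2, Rps19, Rpl9 and Rplp0 were among the others. The median member differed by 0.40 on the log2 scale, with 68 of 77 above 0, beside -0.50 for all genes and -0.02 for the 683 other genes of at least 10 counts. Of the 19, 18 were also among the 28 that differed between wild-type populations, a comparison that uses the same wild-type MPP libraries.

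Rps10 had 1661, 1717 and 1375 CPM in heterozygous MPP2, against 387, 729 and 88.5 in wild-type MPP2. In MPP3 it had 1515, 1439 and 1523 CPM in heterozygous and 137, 724 and 912 in wild-type libraries, and in MPP4 1433, 1292 and 854 CPM in heterozygous and 470, 551 and 388 in wild-type libraries. The groups were apart in all 3 populations, and the mean difference was 1.59 (SE 0.268, 1423 against 487 CPM, limma voom adjusted p = 0.00046). In CMP the heterozygous values, 1623, 1560 and 1543 CPM, lay below the wild-type values, 1652, 2192 and 1688 CPM.

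Rps15 had 1661, 1977 and 1858 CPM in heterozygous MPP2, against 290, 486 and 531 in wild-type MPP2. It stood at 1617, 1689 and 1732 CPM in heterozygous MPP3, against 958, 1085 and 576 in wild-type MPP3, and at 1484, 1472 and 976 CPM in heterozygous MPP4, against 809, 420 and 554 in wild-type MPP4. No pair of groups overlapped, and the mean difference was 1.39 (SE 0.229, limma voom adjusted p = 0.00038). Rps24, needed to process the small-subunit RNA, averaged 2247 CPM in heterozygous and 889 CPM in wild-type MPPs (1.36, SE 0.254). Rps28 averaged 1839 CPM in heterozygous and 774 CPM in wild-type MPPs (1.18, SE 0.233), and Rpl14 1156 CPM in heterozygous and 395 CPM in wild-type MPPs (1.45, SE 0.295). Rpl14 overlapped in MPP4, where heterozygous libraries had 1391, 987 and 707 CPM and wild-type ones 548, 865 and 166.

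Among the called members, Rplp2 and Rpl31 were low and showed the same direction on few counts. Rplp2 had 327, 156 and 169 CPM in heterozygous MPP2 and 0 counts in all 3 wild-type MPP2 libraries, which allows up to 88.3 CPM (3 counts of their 33965 together). Rpl31 had 357, 163 and 279 CPM in heterozygous MPP3 and 0 counts in wild-type MPP3, which allows up to 97.1 CPM. Both were at 0 in shallow libraries, so their fitted differences of 1.49 and 1.65 depend on the pseudocount.

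Several of the most abundant members were not called and lay close together. Rpl4 averaged 3005 CPM in heterozygous and 3489 CPM in wild-type MPPs (-0.24, 95% interval -0.60 to 0.13). Rps9 averaged 4549 CPM in heterozygous and 5970 CPM in wild-type MPPs (-0.19, -0.54 to 0.15), the wild-type mean being raised by the library of 45 Rps9 counts. Rpl10, which joins the large subunit last and lies near its catalytic centre, averaged 2125 CPM in heterozygous and 2367 CPM in wild-type MPPs (-0.19, -0.62 to 0.23). In MPP4 its values were 2336, 2261 and 1219 CPM in heterozygous and 3369, 2936 and 2384 in wild-type libraries, with every heterozygous one lower. Under TMM scaling, which moves the all-gene median of this contrast to 0.11, all 77 members lay above 0, so the sign of these 3 depends on the scaling. Rpl5 and Rpl11, which bind Mdm2 together when ribosome assembly is disturbed, differed by -0.06 (95% interval -0.46 to 0.34) and 0.01 (-0.42 to 0.45).

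**Figure D4:**
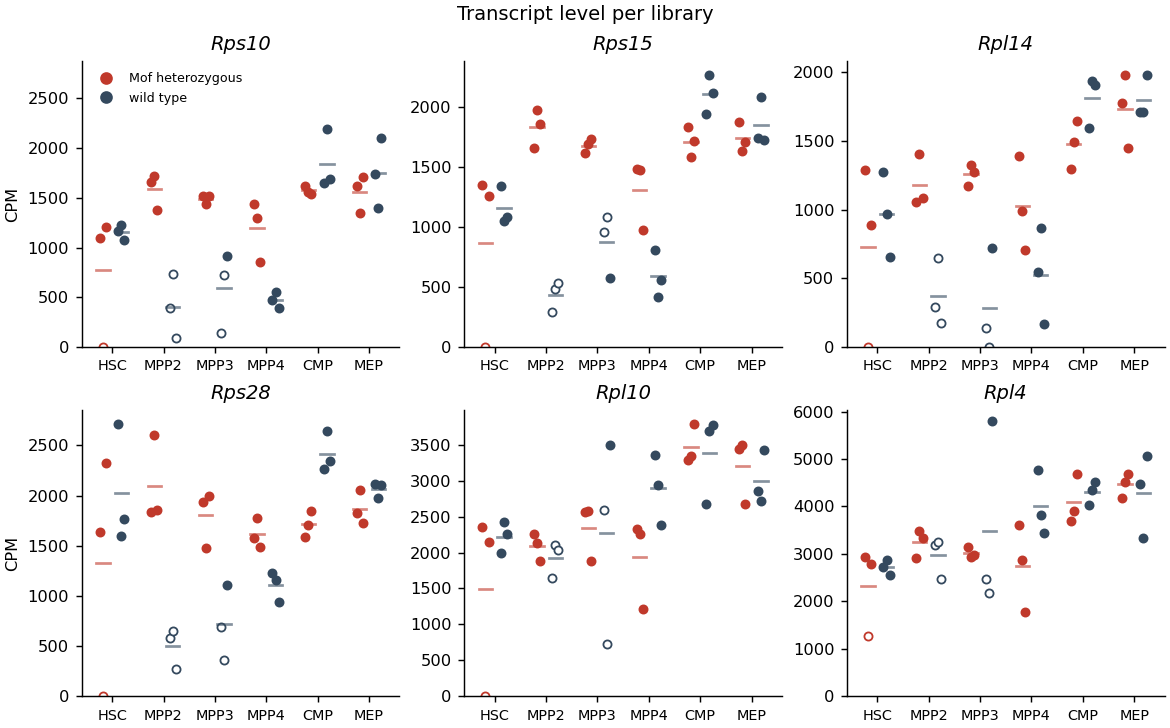
Transcript level in CPM of 6 ribosomal protein genes in each library (points) of the 6 populations, heterozygous left of wild type, with a line at each group mean and open points for the 6 shallow libraries. For Rps10 and Rps15 all heterozygous MPP libraries lie above the wild-type libraries of the same population, while in CMP they lie below them.

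Depth and other cells' transcripts moved with the genotype in these populations. Of the 9 wild-type MPP libraries 5 are shallow, against 0 of the 9 heterozygous ones, which held at least 19221 counts. With the shallow libraries left out, so that the mean covers MPP3 and MPP4 with 4 wild-type libraries, limma voom called 0 members, and the median member was at 0.11, with 47 of 78 above 0, beside -0.19 for all genes. Among the members it gave fitted differences of 1.34 for Rps15, 1.003 for Rps10 and 1.44 for Rpl37. For the same mean, in which 1 library held wild-type MPP3, edgeR was added after seeing this. It gave fitted differences of 1.66 for Rps15, 1.85 for Rpl37 and 1.34 for Rps10. The median member, 0.42, was below the all-gene median of 0.65 there. In MPP4 alone edgeR called 4 members, among them Rps10 at 1.58 and Rps15 at 1.40, where it called 0.264% of all genes. The 11 detected genes of the mature neutrophil list summed to 16.9 to 1887 CPM in heterozygous and 26.1 to 33703 CPM in wild-type MPPs, and globin genes to 726 to 103434 CPM in heterozygous and 288 to 146563 CPM in wild-type MPPs. Taking both lists out of the total left the count within 1.5 times. In MPP2 the 8 B-lineage genes summed to 572 to 1309 CPM in heterozygous and 2904 to 4958 CPM in wild-type libraries. The 5 macrophage and dendritic genes summed to 145 to 1457 CPM in heterozygous and 1702 to 5135 CPM in wild-type MPP2. Both lists stood apart between the genotypes there, and their part in the difference was not tested.

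In the mean of HSC, CMP and MEP no member was called by limma voom or edgeR (2 at an unadjusted p under 0.05, as 8.58% of all genes were, 1 by DESeq2), where 0.07% of all genes were, and the median member was at -0.04. The largest was Rps29 with 1854 CPM in heterozygous and 2896 CPM in wild-type libraries (-0.58, 95% interval -0.92 to -0.23, limma voom adjusted p = 0.339). The test of the difference itself, the genotype difference in the MPPs minus that in HSC, CMP and MEP, called 12 members, all higher, where 0.322% of all genes were. It was also chosen after seeing the values, and without the shallow libraries limma voom called 0 and edgeR 6. The F test for an interaction of genotype with population, planned with 6 populations apart, called 0 (limma voom; 16 at an unadjusted p under 0.05, as 9.83% of all genes were; 7 by edgeR and 7 by DESeq2), where 0.014% of all genes were. Its smallest adjusted p was 0.129, for Rps24, followed by Rpl37, Rps28, Rps15 and Rps10.

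**Figure D5:**
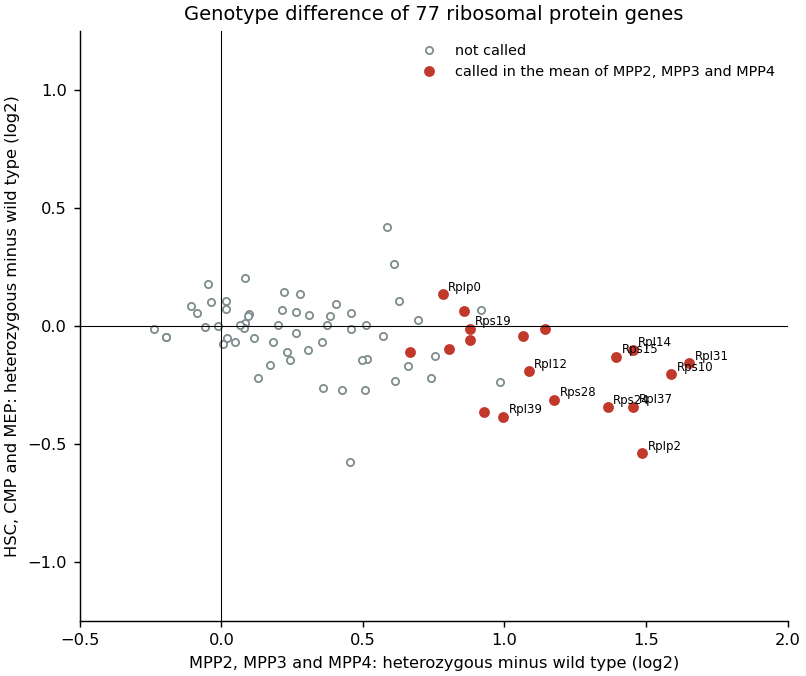
Heterozygous minus wild-type log2 difference of 77 ribosomal protein genes (points) in the mean of MPP2, MPP3 and MPP4 (horizontal) and in the mean of HSC, CMP and MEP (vertical), with filled points for the 19 genes called in the MPPs. The filled points spread from 0.67 to 1.65 along the horizontal axis, while the vertical median of all members is -0.04.

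Transcript features were set beside the genotype difference in MPPs. Over the 77 members, this difference had a Spearman rank correlation of -0.04 with transcript length, 0.26 with GC content and -0.46 with mean CPM (across genes that share the same libraries and depth, given as a description). The mean CPM includes the wild-type MPP libraries, and a low value there lowers it and raises the difference. Part of the -0.46 is therefore built in. Median length was 887 bases for the 19 and 814.5 for the other 58, and median GC 51.8% and 50.7%. The 19 lie on 11 chromosomes and the other 58 on 19.

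Start-site sequences are shown for 4 members that were high in heterozygous MPPs and 2 abundant ones that were not called, to let their pyrimidine tracts be compared. Each runs from 20 bases before to 20 after the annotated start, 5′ to 3′ on the gene's strand, in GRCm38.p6 coordinates with RefSeq promoter sequences, and capitals mark a run of at least 5 C or T that begins or passes within 5 bases of the start.
Rps10, chr17:27635225-27635264, minus strand: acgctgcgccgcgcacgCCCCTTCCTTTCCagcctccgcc
Rpl14, chr9:120571497-120571536, plus strand: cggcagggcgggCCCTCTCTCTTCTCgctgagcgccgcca
Rplp2, chr7:141447631-141447670, plus strand: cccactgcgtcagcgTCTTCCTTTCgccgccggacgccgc
Rps15, chr10:80292411-80292450, plus strand: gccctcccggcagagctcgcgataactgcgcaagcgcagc
Rpl4, chr9:64173367-64173406, plus strand: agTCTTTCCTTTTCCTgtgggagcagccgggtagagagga
Rpl10, chrX:74270796-74270835, plus strand: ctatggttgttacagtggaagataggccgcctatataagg
Of the called genes Rps10 (13 bases), Rpl14 (14) and Rplp2 (10) hold such a run near the start and Rps15 has none of 5 there, though its printed window holds a C/T run near its upstream end. Of the others Rpl4 has a run of 14 near the start and Rpl10 none there, so runs were found and missing on both sides.

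The table held a promoter for 63 of the 84 members. A C/T run of at least 8 near the annotated start was found in 21 of them (33.3%), against 9.63% of 27025 mouse promoters. The letters CTTTC stood in the 40-base window on either strand in 33.3% of members and 9.91% of all promoters. CGGAAG, the core of ETS factor sites, stood in the 300 bases from 250 before to 50 after the start, on either strand, in 42 of 63 members (66.7%) and 17.2% of all. Annotated starts can lie off the true start by several bases, and a match is a description of these letters only.

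Genes of Diamond-Blackfan anaemia were also followed as a list. Of the 20 tested, 7 were called in the MPP genotype comparison, where 19 of all 77 members and 1.6% of all genes were. That contrast was chosen after the values were seen. Among the called were Rpl31, Rps10, Rps19, Rps24 and Rps28. Above 0 lay 19 of the 20, as did 68 of the 77, with a median of 0.54 beside 0.40 for all members. Rps19, the gene most often affected in patients, had 2542, 2705 and 2340 CPM in heterozygous MPP2, against 871, 1216 and 1328 in wild-type MPP2. In MPP3 it had 2621, 2214 and 2543 CPM in heterozygous and 958, 1085 and 2063 in wild-type libraries, all apart in both populations. These wild-type libraries were shallow except MPP3 replicate 3, whose 2063 CPM lay closest to the heterozygous values. The MPP mean, which also covers MPP4 (values not listed here), differed by 0.88 (SE 0.228, limma voom adjusted p = 0.0333). In wild-type CMP and MEP all 20 lay above the other populations, as did 76 and 75 of all 77 members. Of the 20, 3 and 4 were called, where 13 and 12 of the 77 and 1.01% and 0.868% of all genes were.

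The stalk, through which the large subunit binds elongation factors, has Rplp0 at its base and Rplp1 and Rplp2 on it. Rplp0 averaged 2159 CPM in heterozygous and 1221 CPM in wild-type MPPs and was called (0.78, SE 0.214, limma voom adjusted p = 0.0446). Rplp1 averaged 3496 CPM in heterozygous and 3612 CPM in wild-type MPPs (0.18, 95% interval -0.21 to 0.58) and was not. A wild-type MPP3 library of 2764 counts held the highest Rplp1 value, 10492 CPM, next to 2191 and 2831 CPM in the other two.

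Copies of ribosomal protein genes contributed unequally. Rpl22l1, the copy that is repressed by Rpl22 in mice, gave 23.6% of the counts of the pair over all libraries. Its share was 21.1% ± 2.6 in heterozygous and 22.4% ± 2.6 in wild-type CMP, and 26.2% ± 1.2 in heterozygous and 21.04% ± 2.1 in wild-type MEP (SD, n = 3 each). The 3 heterozygous MEP values lay above the 3 wild-type ones. The heterozygous HSC mean of 53.6% ± 40.2 includes a library whose 100% rests on a single count. Rpl7l1 gave 7.07% of its pair, and the copies of Rpl3, Rpl10 and Rpl39 under 0.1%. Rps27l gave 98.2% of the Rps27 pair, since Rps27 had only 6 counts.

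Pseudogene entries outside the symbol rule also bore counts, in 1 case more than the gene it is named for. Rpl31-ps12 held 3601 counts over all libraries and Rpl31 446, so 89.0% of the counts of the 2 lay at the pseudogene, 85.3% to 100% by group. Rps15a-ps6 held 957 counts, fewer than the 1292 of Rps15a. A 3′ tag from such near-identical copies can be placed at either, so the levels of Rpl31 and Rps15a, and the Rpl31 differences above, are uncertain.

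Other translation genes were looked at as lists. Of 6 elongation factor genes, Eef1a1 and Eef1g differed between wild-type populations, and 0 of 6 were called in the MPP genotype comparison (limma voom; median 0.35). Eef1a1, which brings charged transfer RNA to the ribosome, averaged 7506 CPM in heterozygous and 5583 CPM in wild-type MPPs (0.48, SE 0.193, limma voom adjusted p = 0.155). Of 30 initiation factor genes 0 were called in the MPP genotype comparison (limma voom; median -0.06), and 1, the scaffold Eif4g1, was higher in wild-type MEP than in the other populations, at 421 against 143 CPM. Of 75 tested mitochondrial ribosomal protein genes, 1 was called between MPP genotypes, Mrps31, which was lower, and the median was -0.56, near the all-gene median of -0.50. The 3 lists' medians in wild-type CMP were 0.43 for elongation, 0.21 for initiation and -0.16 for mitochondrial ribosome genes, beside 0.52 for the cytosolic ribosomal proteins.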

How the data were processed

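Each table holds a deposited signal, which the authors had obtained by dividing a library's counts by 1 factor. Every value (100%) was a whole multiple of its library's smallest within 0.01 counts, so whole counts were recovered and tested as the design had planned for counts. The submitters' processing notes name the aligner BWA 0.6.2-r126 and the build mm10. For the counter and annotation, a name is not given in the sources used here. Names of 92 spike-in transcripts are missing from the wild-type MEP table, and its gene names were restored by position (rank correlation with wild-type CMP 0.902, against 0.353 as deposited). Spike-ins were kept out of totals.

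Genes with a mean of at least 1 count were tested with limma voom (limma 3.58.1, edgeR 4.0.16, R 4.3.3; pseudocount 0.5 counts; library totals) in 1 fit over 36 libraries with a coefficient for each population and genotype. Adjustment was Benjamini-Hochberg over 7143 genes at 0.05. Alternatives were the edgeR quasi-likelihood test, DESeq2 1.42.0, TMM, other filters, pseudocounts and totals, and leaving out libraries. On simulated data for the mean genotype contrast, 24 of 100 genes changed 2-fold and 86 of 100 changed 4-fold were called, with 15 of 6943 unchanged ones (0.216%). These 15 made up a larger part of all calls there than the 0.05 set. The simulation gave every gene the same dispersion. It let libraries of a population differ only in depth and the set changes, so it does not cover differences between pools. Intervals of log2 differences come from limma and the spread between libraries, while Poisson and Wilson intervals and limits at 0 counts cover counting error only.

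The members and lists were chosen with earlier results of these data known. Named were the 10 highest and 5 lowest detected members, called members, the 8 smallest p-values among populations per genotype, the top 5 for MEP against CMP and for the interaction, paralogue pairs, stalk and Diamond-Blackfan genes, except a few that are counted but not reported here by name. Abundant or low genes set beside them (Rps24 and Rps29 values, Rpl5, Rpl11, start-site sequences and the genes of contrasts added later) were chosen after their values were seen. Transcript length and GC came from GENCODE M21.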

Additional observations from a re-analysis of the deposited data

Results flagged for a closer look

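In 12 members the heterozygous minus wild-type difference was larger in the mean of the MPPs than in the mean of HSC, CMP and MEP (limma voom, adjusted p 0.0032 to 0.0403, a contrast chosen after seeing the data). The difference of differences on the log2 scale was 2.03 for Rplp2, 1.81 for Rpl31, 1.80 for Rpl37, 1.79 for Rps10, 1.71 for Rps24, 1.56 for Rpl14, 1.52 for Rps15, 1.49 for Rps28, 1.38 for Rpl39, 1.29 for Rpl36, 1.28 for Rpl12 and 1.03 for Rps29. Without the 6 shallow libraries limma voom called 0 of these.

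Counts were also found at pseudogene entries of the family, outside the members: 3601 for Rpl31-ps12, 957 for Rps15a-ps6, 126 for Rps19-ps3, 37 for Rps15a-ps4 and 31 for Rpl34-ps1.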

How the results depend on the processing

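Counts of called members changed with the method as follows, and the cause was not tested. In this section all-gene counts or shares stand only beside those of DESeq2, edgeR and TMM on all libraries. For some counts without the shallow libraries, such as the heterozygous F test, they are given in the Results. The remaining counts are printed without them, so they are not set against the whole here. With DESeq2 they were 13 for genotype over all populations, 6 in MPP2, 4 in MPP4, 1 in the mean of HSC, CMP and MEP, 7 for the interaction, 3 for MPP2, 1 for MPP4, 21 for CMP and 24 for MEP against others in wild type, and 3 (F test) and 5 (MEP) in heterozygous. Of all 7143 genes DESeq2 called, in the same order, 47, 21, 10, 3, 18, 32, 24, 91, 82, 185 and 45. With edgeR, in the same comparisons, they were 5 for genotype, 4 in MPP2, 2 in MPP3, 38 in the MPP mean, 26 for MPPs minus the rest, 7 for the interaction, and 0, 26 and 26 for MPP2, CMP and MEP in wild type. The shares of all genes called by edgeR were, in the same order, 1.13%, 0.154%, 0.098%, 4.55%, 2.3%, 0.42%, 0.084%, 4.3% and 5.28%. TMM scaling gave 0 for genotype, 2 in MPP2, 1 in MPP3, 20 for MPPs minus the rest, 1 for the interaction, and 2 for CMP and 3 for MEP in wild type. Of all 7143 genes it called, in the same order, 9, 13, 3, 92, 10, 73 and 50. limma trend with equal weights gave 0 for genotype, 1 and 2 in MPP2 and MPP3, 9 in the MPP mean, 4 for MPPs minus the rest, 7 in the wild-type F test, 2, 6, 0 and 1 for MPP2, MPP3, CMP and MEP in wild type and 23 for heterozygous HSC. With no filter the counts were 2 for genotype, 17 in MPP3, 32 in the MPP mean, 31 for MPPs minus the rest, 4 for the interaction, 60 and 29 in the wild-type and heterozygous F tests, 0, 10 and 42 for MPP2, MPP3 and CMP in wild type, and 7 and 1 for HSC and MEP in heterozygous. A pseudocount of 2 counts gave 2 for genotype, 2 and 6 in MPP2 and MPP3, 23 for MPPs minus the rest, 1 for the interaction, 2 and 2 for MPP2 and MPP3 in wild type, and 5 and 1 for the F test and HSC in heterozygous. Fits on a population's 6 libraries called 5, 1 and 1 in MPP2, MPP3 and CMP. Without neutrophil and globin genes the heterozygous F test called 4, and with spike-ins in the total the heterozygous MPP2 share was 14.5%.

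Without the 6 shallow libraries the counts were 0 for genotype, MPP mean and MPPs minus the rest, 7 and 4 for MPP4 and CMP in wild type, and 18, 1, 2 and 5 for the F test, MPP4, CMP and MEP in heterozygous. edgeR without them, chosen after seeing the data like the MPP contrasts, called 0, 7 and 6, and 4 in MPP4, 2 for the interaction, 14 for MPP4 in wild type and 1 in the heterozygous F test.

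Leaving out 1 library at a time gave 0 to 9 for genotype, 0 to 3 in MPP2, 0 to 4 in MPP3, 10 to 25 in the MPP mean, 7 to 20 for MPPs minus the rest, 0 to 3 for the interaction, 21 to 44 and 0 to 5 in the wild-type and heterozygous F tests, and 0 to 1, 0 to 2, 2 to 26 and 1 to 29 for MPP2, MPP3, CMP and MEP in wild type. The lowest MPP mean count came without heterozygous MPP2 replicate 1 or MPP4 replicate 1. Without wild-type MPP3 replicate 3 the wild-type F test called 44.

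Of the single genes' values, 989 kept their call and direction, 91 lost the call and none reversed. No paired analysis was possible because the numbers in the column names run on through the groups, so none is shared. Sorts of few cells and the shallow libraries limit precision, and the sample record cannot be separated from genotype.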
